A study of Mus musculus with 6 samples.

Results

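Chromosome 13 was described from 1663 probes of mouse chromosome 13, out of 42404 probes on each array for comparative genomic hybridization (array-CGH). The probes were chosen by their chromosome in the array files, which give positions on the mouse genome build mm8. The chromosome itself was picked with earlier results of these data known, among them its low epithelial probes. Within the chromosome, 4 single probes were selected on their own ratios, because their log2 ratio was under -2 on each of the 3 epithelial arrays, and their epithelial values are therefore given as a description without a test. Test DNA came from epithelia and stroma that had been laser captured, after recognition by morphology, from forestomach with squamous cell carcinoma (SCC) of 3 Tgfbr2fspKO mice of the C57Bl/6 strain, which the study's methods place at 5 weeks of age. In these mice Tgfbr2, which encodes the type II receptor of TGF-β, is floxed and deleted by Cre from the promoter of FSP1, a gene active in fibroblasts, so that the deletion is aimed at stromal fibroblasts. The reference DNA was that of normal forestomach epithelia from Tgfbr2flox/flox mice, which have the floxed gene without the knockout, and none of these control mice was hybridized as test DNA. The 2 tissues of a mouse had the same mouse number in the labels, giving 3 arrays per tissue and 6 in all.

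In array-CGH, test and reference DNA are labeled with different dyes and compete for the same probe. A log2 ratio near 0 stands for equal amounts of the sequence in both, and a negative ratio stands for less of it in the test DNA. A stretch of chromosome that is lost in tumor cells lowers all probes along it, whereas a single low probe between neighbors near 0 limits such a stretch to the gap between those neighbors. In these bulk DNA samples, fewer cells carrying a sequence and fewer copies per cell cannot be told apart. In the RefSeq gene table of the assembly GRCm38, chromosome 13 holds 829 protein-coding genes, among them Smad5, a transducer of BMP signals, Tgfbi, a matrix protein induced by TGF-β, Ptch1, the Hedgehog receptor, Tert, the catalytic subunit of telomerase, Pik3r1, a regulatory subunit of PI3-kinase, and Rasa1, a Ras GTPase-activating protein. The probes are listed without gene names, on another build than the gene table, so none was assigned to a gene and the deletion of Tgfbr2 was not checked here.

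The probes of chromosome 13 lay between 3489596 and 120604804 of mm8 and were between 45 and 60 bases long, with a median distance of 28478 bp between their starts. Both channels were well above background on all 6 arrays at 1272 of them (76.5%), against 71.2% of all probes. The scanner software's own measure of the spread between neighboring probes, taken over the whole array, was highest for mouse 2 epithelia (0.835) and ranged from 0.395 to 0.488 elsewhere, beyond the accepted range for each of the 6 arrays. On chromosome 13, 9 probes had more than 1 spot, and the SD of the log2 ratio among spots of the same probe was 0.34 for mouse 2 epithelia and ranged from 0.085 to 0.25 elsewhere. Slide 1 held both tissues of mice 1 and 2, and slide 2 both tissues of mouse 3. The test DNA was always in the Cy3 channel, so dye and sample cannot be told apart.

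Among the 1661 probes of chromosome 13 that had a value on all 3 epithelial arrays, 4 (0.241%) were below -2 on each of them. Over all chromosomes it was 11 of 42382 probes (0.026%). Since chromosome 13 was picked with these low probes known, nothing is read from its larger share. Along the chromosome, each of the 4 lay between 2.9 and 55.3 Mb from the next. The closest pair had 30 other probes of the chromosome between them. Each was printed on the array as 1 spot. With another background correction (normexp on the median signals, offset 50) 1 of the 4 remained below -2 on all epithelial arrays, A_53_P119493. Over all chromosomes 3 probes were below -2 on all epithelial arrays with that correction. The offset is added to both channels and draws ratios of weak signals toward 0, so nothing about a cause is read from this loss.

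The probe A_53_P119493 (chr13:9678947-9679006) had the lowest epithelial ratios of the chromosome in mice 1 and 3 and the next to lowest in mouse 2. In order of mouse number, its epithelial log2 ratio was -5.63, -3.62 and -4.53, with a mean of -4.60 ± 1.01 (SD, n = 3). In the stroma it was -0.50, -0.69 and -1.04 (mean -0.74 ± 0.27). It was therefore below 0 on all 6 arrays, and every epithelial ratio was lower than every stromal one. Within each mouse the epithelia were lower than the stroma by a log2 ratio difference of -5.13, -2.93 and -3.50. The stromal mean was not past the threshold in limma with Benjamini-Hochberg adjustment over all probes (adjusted p = 0.43).

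A_53_P134620 (chr13:65026883-65026942) had low ratios in both tissues of mouse 1. The test signal was not well above background in either of them, so their depths cannot be compared closely. Its epithelial log2 ratio was -4.15, -3.75 and -3.23 in mice 1, 2 and 3 (mean -3.71 ± 0.46), and its stromal log2 ratio was -3.88, 0.10 and 1.22 (mean -0.85 ± 2.68). The stroma of mouse 1 thus lay within the range of the epithelia, that of mouse 2 near 0 and that of mouse 3 above 0. The stromal values of the 3 mice spanned 5.10, the largest span in the stroma among the 1652 probes of the chromosome with 6 values. The difference between epithelia and stroma was -0.27 in mouse 1, -3.85 in mouse 2 and -4.45 in mouse 3. With this spread the stromal mean gave an adjusted p of 0.651 in limma.

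A_53_P106592 (chr13:67940561-67940620) was the least deep of the 4 and the most even in the epithelia. Its epithelial log2 ratio was -2.13, -2.04 and -2.09, in order of mouse number (mean -2.08 ± 0.046). The stromal values were -1.15, 0.28 and 0.90 (mean 0.0088 ± 1.05), and their span of 2.05 was the 13th largest on the chromosome. All 3 stromal values were above all 3 epithelial values, and they were on both sides of 0 (adjusted p = 0.994 in limma).

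A_53_P107603 (chr13:97117885-97117944) had an epithelial log2 ratio of -2.81, -3.18 and -3.15 (mean -3.04 ± 0.21) and a stromal log2 ratio of -0.13, 0.35 and 1.42 (mean 0.55 ± 0.79) in mice 1, 2 and 3. The tissues did not overlap, and the difference within a mouse was -2.68, -3.53 and -4.58. Selection on low epithelial values favors such a separation, here and at A_53_P119493 and A_53_P106592, so nothing is read from it. In the stroma of mouse 3 this probe was the 7th highest of the 1656 measured on the chromosome, while in the epithelia of the same animal it was the 3rd lowest. The stromal mean was not past the threshold (adjusted p = 0.491 in limma).

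**Figure D1:**
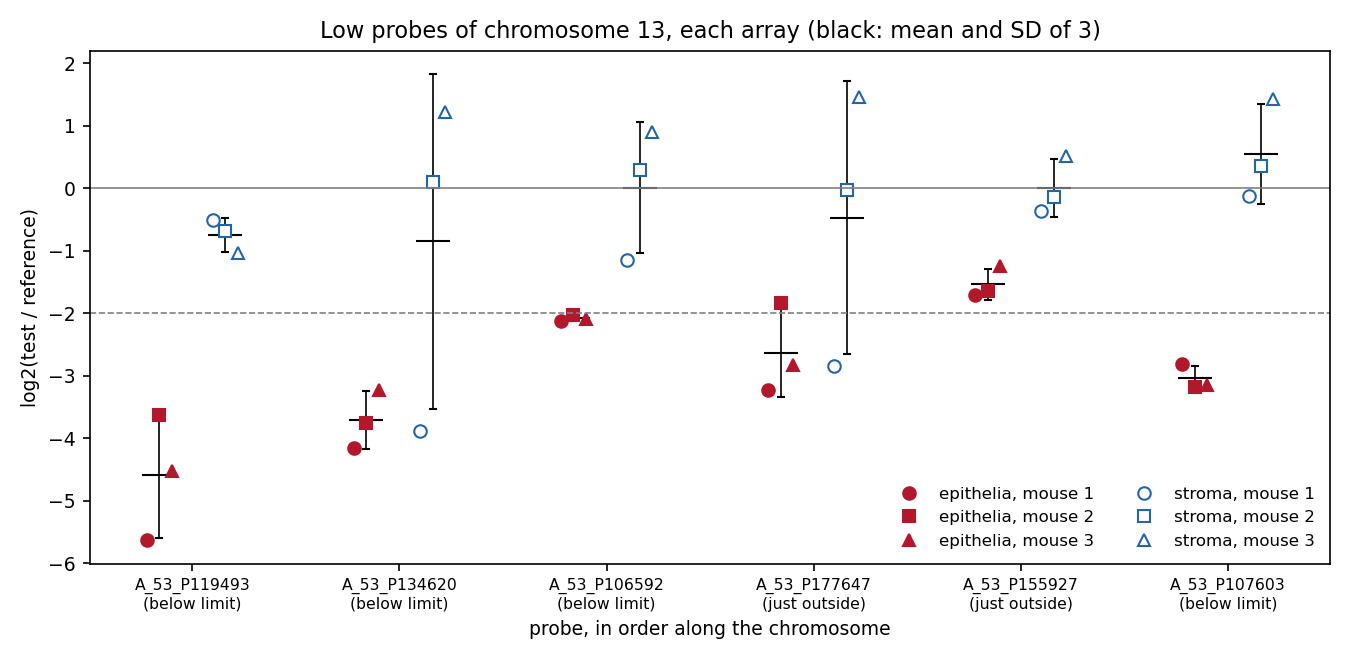
Log2 ratio of test over reference DNA (vertical axis) at 6 probes of chromosome 13, in order along the chromosome, for epithelia (filled) and stroma (open) of mice 1 to 3. Black bars are the mean and SD of 3 arrays, the dashed line is at -2, and 4 probes have all epithelial values below it while the 2 named just outside do not.

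The 2 probes just outside the limit were A_53_P177647 (chr13:84106321-84106380) and A_53_P155927 (chr13:96540342-96540401). The first was below -2 in the epithelia of 2 mice, with log2 ratios of -3.23, -1.84 and -2.83, and had stromal log2 ratios of -2.85, -0.02 and 1.46. Here too the stroma of mouse 1 lay within the epithelial range and the stroma of mouse 3 was above 0. Its stromal span of 4.30 was the 2nd largest of the chromosome. The second had -1.71, -1.65 and -1.25 in the epithelia and -0.37, -0.15 and 0.52 in the stroma. The limit of -2 therefore fell between a probe whose highest epithelial value was -2.04 and one at -1.84.

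In 5 of these 6 probes the stroma of mouse 1 was lowest and that of mouse 3 highest, an order noticed after the values were seen, and A_53_P119493 had the opposite order. At 4 of them (A_53_P134620, A_53_P106592, A_53_P177647 and A_53_P107603) the stroma of mouse 3 was above 0.5 while the epithelia of that mouse were below -2. Over all 42187 probes with 6 values, 7 had this combination in mouse 3, and 4 of the 7 were on chromosome 13. The combination was also chosen after the values were seen. All of the 4 had been named for their epithelial values, A_53_P177647 as a probe just outside the limit, so nothing is read from their number. The array of mouse 3 stroma was on the same slide as that of mouse 3 epithelia. Stromal spans above 2 were found at 15 probes of chromosome 13 (0.908%) and at 0.924% of all probes.

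The signals behind these ratios differed in the test channel and much less in the reference channel. At A_53_P119493 the processed Cy3 signal, in order of mouse number, was 33.9, 131 and 99.4 for the epithelia and 1237, 1081 and 1035 for the stroma. The Cy5 signal of the reference at the same probe lay between 1626 and 2298 on the 6 arrays. In mouse 3, where both test signals were well above background, that of the stroma was 10.4 times that of the epithelia. At A_53_P134620 the Cy3 signal was 58.0, 56.4 and 112 in the epithelia and 64.7, 1191 and 3022 in the stroma, with the reference between 767 and 1303. At A_53_P107603 it was 177, 135 and 158 in the epithelia and 1422, 1816 and 3881 in the stroma, with the reference between 1230 and 1571. At A_53_P106592 it was 194, 224 and 388 in the epithelia and 350, 1104 and 2503 in the stroma, with the reference between 788 and 1652. For scale, the median Cy3 signal of the chromosome was between 942 and 1245 on the 6 arrays.

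At these 6 probes the reference DNA gave a signal well above background on each of the 6 arrays, and the test DNA did not. In the epithelia of mouse 3 the test signal was well above background at each of the 4 low probes. In the epithelia of mouse 1 it was so at A_53_P107603 alone among the 4, and in the epithelia of mouse 2 at none of them. In the stroma it was well above background on all 3 arrays except at A_53_P134620 in mouse 1. The size of a ratio on an array where the test channel was not well above background is uncertain. None of the 4 belongs to the probes well above background throughout, since that requires all 6 arrays.

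**Figure D2:**
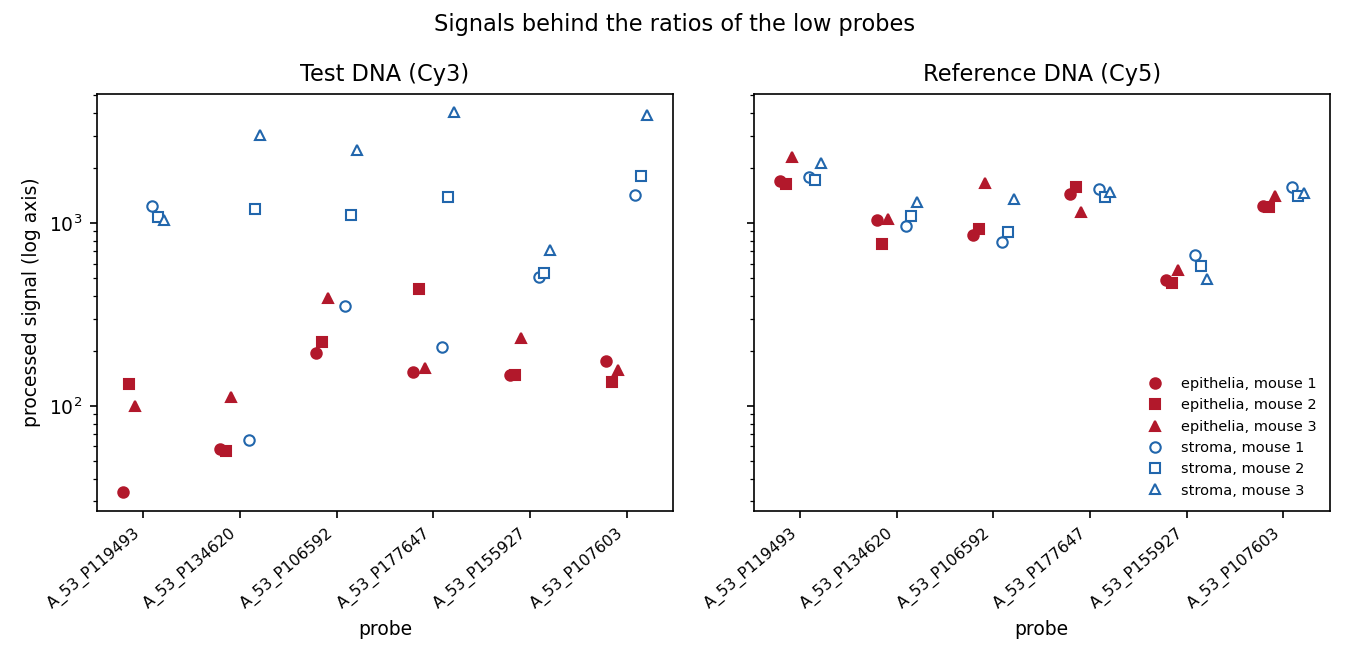
Processed Cy3 signal of the test DNA (left) and Cy5 signal of the reference DNA (right) on a log axis at the same 6 probes, for epithelia (filled) and stroma (open) of mice 1 to 3. The test signal at A_53_P134620 runs from 56.4 to 3022 over the arrays, while its reference signal stays between 767 and 1303.

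None of the 4 low probes had an adjacent probe below -1 in the epithelia of every mouse. Next to A_53_P119493, the probe 11.7 kb before it had epithelial log2 ratios of 0.66, -0.31 and -0.35 and the probe 30.5 kb after it had -0.20, 0.24 and 0.19. The next probes outward, 57.8 kb before and 71.2 kb after, had 0.03, -1.48 and -0.29 and -0.997, -0.63 and -0.24. A stretch of low DNA that takes in this probe alone would be at most 42.2 kb long, the distance between its nearest neighbors.

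The neighbors of A_53_P134620 were farther away, 89.1 kb before and 74.9 kb after. They had epithelial log2 ratios of -0.60, 0.15 and 0.22 and of -0.12, -1.30 and -0.18. The gap between them was 164 kb. In the stroma of mouse 1, where the low probe was at -3.88, these neighbors were at 0.94 and -1.18. The probes beyond them, 94.4 kb before and 96.1 kb after, had 0.22, -0.69 and 0.09 and 0.02, -0.54 and -0.41 in the epithelia.

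A_53_P106592 had the closest neighbor of the 4, a probe 5.04 kb after it with epithelial log2 ratios of 0.81, -1.30 and -0.23. The probe 25.2 kb before it had -0.24, -0.78 and -0.72, and the gap between the neighbors was 30.3 kb. The next probes outward had -0.41, -0.90 and -0.08 at 34.6 kb before and 0.07, -0.14 and 0.10 at 49.2 kb after.

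For A_53_P107603 the probes 36.0 kb before and 12 kb after had epithelial log2 ratios of 0.20, 0.13 and -0.37 and of -0.31, -0.88 and -0.80, with 48.1 kb between them. The probes 117 kb before and 102 kb after had 0.40, -1.15 and 0.07 and 0.19, 0.10 and -0.30. Among the nearest 2 probes on each side of the 4 low probes, the lowest epithelial value was -1.48, in mouse 2, the array with the largest spread between neighbors.

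Over the 10 nearest probes on each side, which for the 4 low probes make 20 probes each, the mean epithelial log2 ratio was -0.29 around A_53_P119493, -0.23 around A_53_P134620, -0.15 around A_53_P106592 and -0.20 around A_53_P107603. The mean stromal ratio of the same probes was -0.075, 0.012, 0.045 and 0.15. No flanking probe was below -1 on all 3 epithelial arrays. One of them was below -2 on a single epithelial array, out of 60 values around A_53_P119493.

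**Figure D3:**
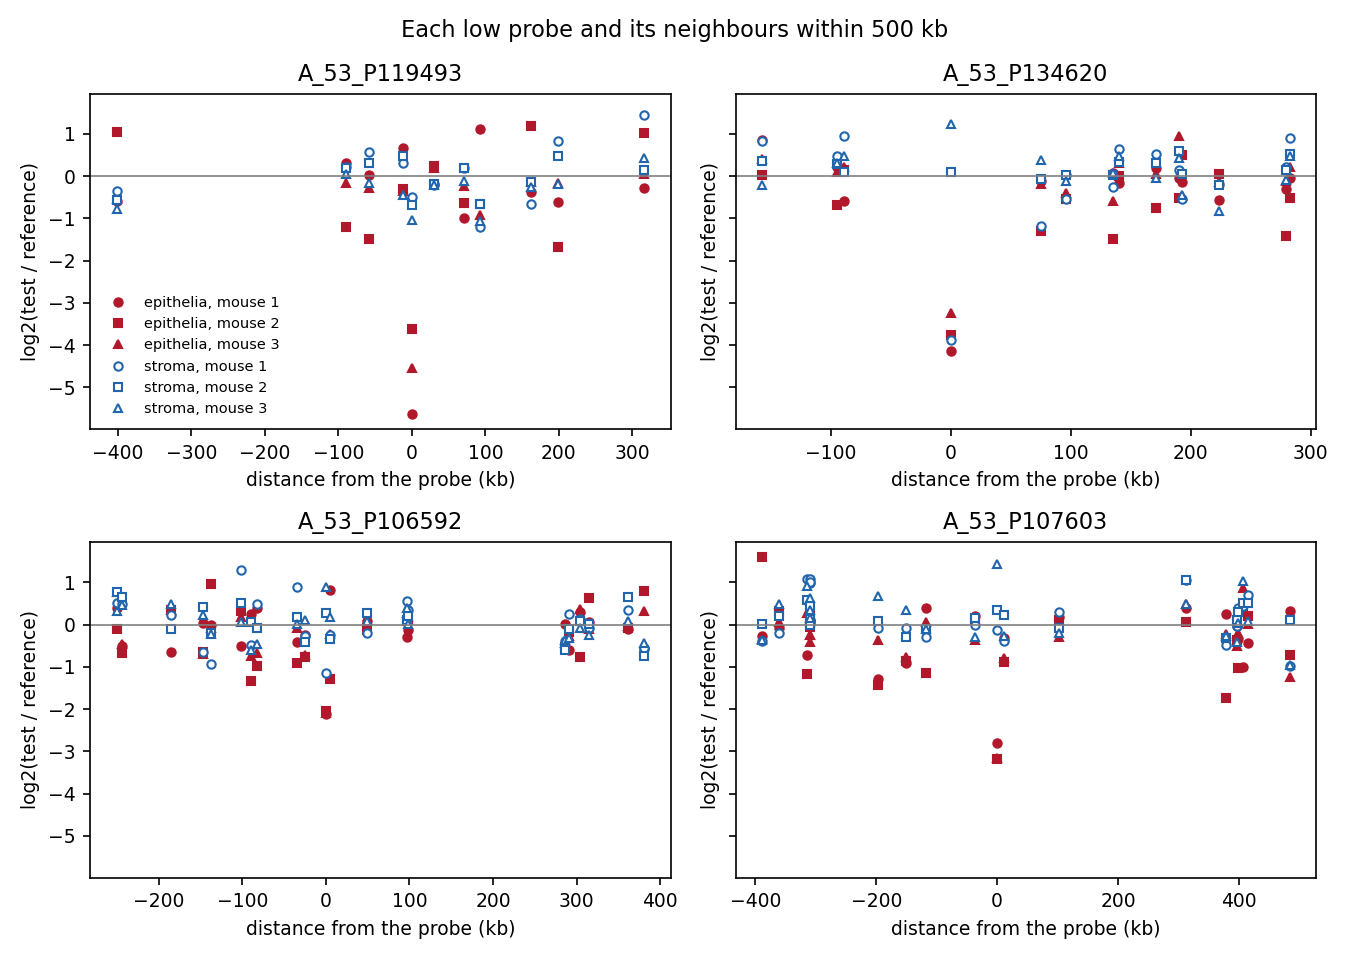
Log2 ratio of test over reference DNA (vertical axis) of each of the 4 low probes and of those among its 10 nearest probes on each side that lie within 500 kb, against the distance from the low probe in kb, for epithelia (filled) and stroma (open) of mice 1 to 3. In each panel the 3 epithelial values at distance 0 lie below -2, and no neighbor has all 3 of them below -1.

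On single arrays, probes below -2 were most numerous in the epithelia of mouse 2. There, 23 probes of chromosome 13 (1.38%) were below -2, against 1.23% of all probes. In the epithelia of mouse 1 it was 7 probes (0.421%, against 0.0849% of all probes), and in those of mouse 3 it was 5 (0.301%, against 0.0330%). Chromosome 13 was picked with its low epithelial probes known, so nothing is read from these larger shares. In the stroma, 2 probes of the chromosome were below -2 in mouse 1 (0.12%, against 0.0307% of all probes). In the stroma of mice 2 and 3 it was 0, against 0.0401% and 0.0118% of all probes. The 2 in the stroma of mouse 1 were A_53_P134620 and A_53_P177647. Of the 23 probes in the epithelia of mouse 2, 18 were above -1 in the epithelia of both other mice, whereas the 5 of mouse 3 were each below -1 in both others. Of those 5, 4 are the probes selected for values below -2 in all epithelia. Their agreement between mice therefore follows from the selection. The other was A_53_P177647, which was named as just outside the limit for its epithelial values.

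In the test across probes, limma was fitted to all 42404 probes. On chromosome 13 it called 2 probes in the epithelia, both lower, against 0.0236% of all probes. It called 0 probes of the chromosome in the stroma, against 0.00472% of all probes, with 190 of the 1663 (11.4%) at an unadjusted p under 0.05, against 11.5% of all probes, and a lowest adjusted p of 0.333. For the difference between epithelia and stroma it called 2, both lower in the epithelia, against 0.0165% of all probes. The 2 probes were A_53_P119493 and A_53_P107603 in both cases, which are among those selected on the epithelial values, so nothing is read from their number. With the mouse as a block, limma called 4 probes of the chromosome in the epithelia, which were the same 4 low probes, selected on these values, and 15 (0.0354%) of all probes. The 2 calls for the difference were lost with the slide as a block, without mouse 1, without mouse 3, with normexp, with an ordinary model per probe and with probes that were not well above background left out. The 2 calls in the epithelia were lost without mouse 3, with the ordinary model and with that filter. In the stroma, 63 probes of the chromosome (3.79%) were called when each tissue was fitted with its own spread, against 3.24% of all probes.

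Of the 1652 probes of chromosome 13 with 6 values, 96 (5.81%) were below 0 on all arrays, against 4.64% of all probes, and 47 (2.85%) were above 0 on all, against 4.49%. Ranked by the value nearest 0, the lowest was A_53_P131927 (chr13:84215215-84215274), with log2 ratios of -0.90, -0.53 and -0.64 in the epithelia and -0.71, -0.77 and -0.66 in the stroma of mice 1, 2 and 3. A_53_P119493, described above, came next, followed by A_53_P106201 (chr13:78658076-78658135), with -0.40, -0.69 and -0.70 in the epithelia and -1.24, -0.90 and -0.66 in the stroma. The highest was A_53_P171665 (chr13:107954982-107955041), with 1.09, 0.51 and 0.66 in the epithelia and 0.58, 0.50 and 0.45 in the stroma. Next came A_53_P106868 (chr13:32986276-32986335), with epithelial means of 0.56 ± 0.17 and stromal means of 1.01 ± 0.42, and A_53_P118100 (chr13:38611263-38611317), with 0.73 ± 0.31 and 0.73 ± 0.26 (SD, n = 3). None of these 6, apart from A_53_P119493, was called in either tissue by limma.

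As a whole, chromosome 13 was slightly lower than the center of the array in the epithelia. In order of mouse number, its mean log2 ratio was -0.070, -0.137 and -0.104 for the epithelia and 0.038, -0.0014 and -0.059 for the stroma. All 3 epithelial means were below all 3 stromal means, and within each mouse the epithelia were lower, by differences of -0.108, -0.135 and -0.045. The tissues came close, at -0.070 for the highest epithelial mean and -0.059 for the lowest stromal one. Chromosomes 1 and 18 were separated in the same direction, so this was not particular to chromosome 13. How many of the 20 chromosomes were separated was not counted. The epithelial mean of -0.103 (SE 0.028, n = 3) was past the threshold in limma over 20 chromosomes (adjusted p = 0.01), as were 45% of the chromosome means in the epithelia. Chromosome 13 had the 3rd lowest of the 20 means, so a mean past the threshold was common rather than particular to it. The stromal mean was -0.0073 (adjusted p = 0.962).

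The difference between epithelia and stroma was -0.096 (SE 0.040) and was not past the threshold after adjustment in limma (adjusted p = 0.0916, unadjusted p = 0.0321), where 15% of chromosomes were. An exact two-sided permutation test of the 6 means gave p = 0.1, the smallest that 3 against 3 unpaired arrays allow. That test did not use the pairing of the tissues by mouse. Within slides, the difference was -0.122 for the 2 mice of the first slide and -0.045 for the mouse of the second. The epithelial call was lost without mouse 1 (adjusted p = 0.0579) and without mouse 3 (adjusted p = 0.197) in limma. The mean moved little without the 4 low probes, to -0.095 in the epithelia. The ratios of single probes spread far more than the level, with an interquartile range from -0.365 to 0.170 in the epithelia of mouse 3 and from -0.729 to 0.433 in those of mouse 2.

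The bin means differed along the chromosome in the epithelia of mouse 2, the array with the largest spread between neighboring probes. Of the 12 bins of 10 Mb, 10 had a mean log2 ratio below 0 on each epithelial array, a count not made for the other chromosomes. In the first 3 bins the epithelia of mouse 2 were at -0.363, -0.414 and -0.352, in the 6th at 0.148 and in the 7th at -0.250. Mice 1 and 3 stayed between -0.183 and 0.0078 over all 12 bins. Over the first 30 Mb, a stretch chosen after the values were seen, the 376 probes had an epithelial mean of -0.042, -0.372 and -0.133 in mice 1, 2 and 3, and the other 1287 probes had -0.078, -0.068 and -0.095. Over that first stretch the stroma was at 0.158, 0.047 and -0.068, so that the stroma of mouse 1 was above 0 where the epithelia of mouse 2 were lowest.

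**Figure D4:**
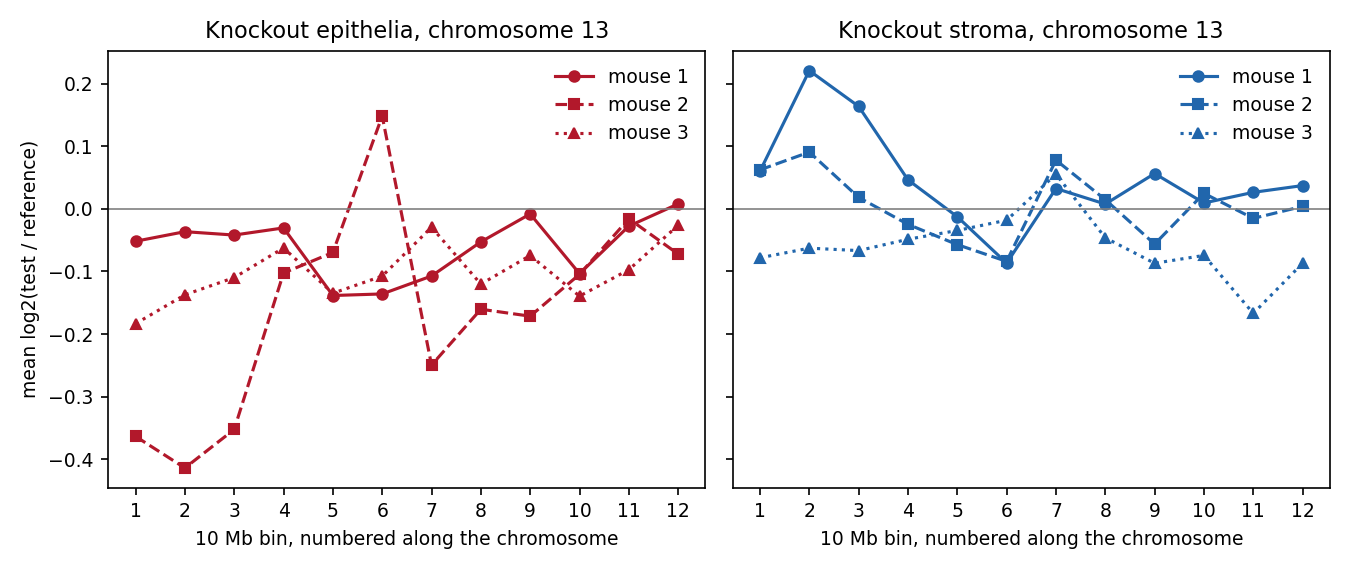
Mean log2 ratio of test over reference DNA (vertical axis) in the 12 bins of 10 Mb of chromosome 13, numbered along the chromosome, for the epithelia (left) and stroma (right) of mice 1 to 3. The epithelia of mouse 2 lie between -0.414 and -0.352 in the first 3 bins and at 0.148 in the 6th, while mice 1 and 3 stay closer to 0.

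No bin of chromosome 13 was called in limma, in the epithelia, the stroma or for the difference, where 2.62% of the 267 bins of all chromosomes were called in the epithelia. Unadjusted, 7 of the 12 bins of the chromosome (58.3%) had p under 0.05 in the epithelia, against 22.5% of all bins. In the stroma it was 0 of 12, against 1.12% of all bins, and for the difference 2 (16.7%), against 10.5%. The lowest adjusted p was 0.171 in the epithelia, 0.986 in the stroma and 0.451 for the difference. In 4 of the 12 bins all 3 epithelial means were below all 3 stromal means, and in 10 the mean difference was negative. These counts were not made over the bins of the other chromosomes, so nothing particular to chromosome 13 is read from them.

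Runs of 5 consecutive probes are described here without a test, by the lowest and highest run of each tissue. The run of 5 with the lowest epithelial mean was chr13:9621106-9750226, at -1.23, -1.16 and -1.04 in mice 1, 2 and 3, and it held A_53_P119493. The deep values of that selected probe enter the mean, so this rank does not show whether a wider low stretch lies elsewhere. The lowest stromal run was chr13:99412649-99592615, with a mean of -0.70 ± 0.11 (SD, n = 3), where the epithelia were at -0.32, -0.30 and -0.53. The highest stromal run was chr13:27716455-27816039, with 1.20, 0.39 and 0.51 in mice 1, 2 and 3, and the highest epithelial run was chr13:109522841-109772582, with 0.11, 1.07 and 0.39. In each of these highest runs 1 mouse stood well above the other 2.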

How the data were processed

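Per the file headers, the authors extracted signals with Feature Extraction 10.7.1.1. The deposited intensity values are processed and median signals of the Cy3 (test) and Cy5 (reference) channel, and the deposited log10 values are log10 ratios of reference over test, equal to the series table (largest difference 0). Each file held 45220 spots. The ratio used here is log2 of processed Cy3 over Cy5, less the median of all probes of the array, after removal of outlier spots (35 to 147 per array) and averaging of spots of 1 probe. Each mean was tested in limma 3.58.1 (R 4.3.3) on 6 arrays, with both tissues sharing 1 spread, over 42404 probes, 20 chromosomes or 267 bins of at least 20 probes, at an adjusted p of 0.05. Fits were tested on simulated data. The mouse pairs the tissues by the labels, and the deviations of its 2 arrays correlated at 0.0776, -0.0232 and 0.103, so the block is an alternative. Members and lists were chosen with earlier results of these data known. Named were the probes below -2 in all epithelia with 2 neighbors per side, the 2 just outside, called probes (at most 5 per comparison), and the 3 highest and lowest with 1 sign on 6 arrays. The planned normexp correction used median signals with an offset of 50, since the files used hold no mean signals. The number of arrays limits precision.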

Additional observations from a re-analysis of the deposited data

Results flagged for a closer look

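At 2 probes of chromosome 13 the difference between epithelia and stroma was past the adjusted threshold in limma over all probes. The log2 difference was -3.85 at A_53_P119493 and -3.59 at A_53_P107603, and the epithelia were lower in 3 of 3 mice at both. Both probes were selected on their epithelial ratios, which enter this difference, so the values are a description and not a test of a difference between the tissues. The calls were lost with the slide as a block, without mouse 1, without mouse 3, with normexp, with the ordinary model per probe and with dim probes left out.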

How the results depend on the processing

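The epithelial level of chromosome 13 stayed below 0 in all 14 alternatives and lost its call in 2 of them. Without each mouse in turn it was between -0.12 and -0.0866. The stromal level changed sign to 0.0003 with loess and 0.0024 once dim probes were left out, and without each mouse it ran from -0.03 to 0.0184, on both sides of 0. The mouse as a replicate block left both levels at -0.1033 and -0.0073 and changed 1 count, probes called in the epithelia, from 2 to 4. That count was 0 with dim probes left out and with the ordinary model per probe, and 0 to 3 without each mouse. The count for the difference was 0 with normexp, with dim probes left out, with the slide as a block and with the ordinary model, and 0 to 2 without each mouse. In the stroma 63 probes (3.79%, against 3.24% of all probes) were called when each tissue was fitted on its own arrays. Probes below -2 in all epithelia numbered 1 with normexp and 0 with dim probes left out (those not well above background in both channels on every array), and with normexp the epithelial means of the 6 named low probes were between -2.57 and -0.81. The level without the 4 low probes was added after seeing the data. The cause was not tested. Leaving out dim probes takes out all 4 low probes by the rule of the filter, which removes any probe with a weak test signal on an array. Nothing about the cause is therefore read from that filter. Bins of chromosome 13 called stayed at 0 in all alternatives run. Signal over background limits the low probes.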
